A study of Bos taurus with 16 samples.

Results

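The zinc finger genes with ZNF and ZBTB symbols were described here in endometrial cells of dairy cows profiled by reduced representation bisulfite sequencing (RRBS), which measures methylation at cytosines near MspI cutting sites. A gene was taken when it lay on an autosome and its symbol began with ZNF or ZBTB followed by a digit. These were 146 of the 10781 genes with a measured position (122 ZNF and 24 ZBTB genes), with 1930 of the 199395 positions, or 0.968% of them. A gene mean was computed for the 116 genes with 2 or more positions (94 ZNF and 22 ZBTB genes), of 8719 such genes in all, and the other 30 had 1 position each. In the bovine RefSeq annotation 331 autosomal protein-coding genes carry such a symbol, and 143 of them had a position here. Another 3 genes (ZNF71, ZNF853 and ZNF471) were not matched there by symbol.

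All cows were multiparous lactating Holstein-Friesians kept on 1 farm and bred by artificial insemination (AI) at oestrus on days 50 to 64 after calving, and the cells were taken by cytobrush 4 to 8 h later. From day 12 after calving the MET cows received rumen-protected methionine (RPM), a coated form of the amino acid that feeds the methyl donor S-adenosylmethionine and that escapes breakdown in the rumen, and the CON cows the control diet without it. After the pregnancy check the samples were divided into cows that became pregnant (CON_P and MET_P) and cows that did not (CON_noP and MET_noP), so that every sample was taken before the outcome was known. Each of the 4 groups had 4 libraries. The number of cows in a library is not given, and more DNA samples than libraries were made, so the SDs below need not reflect the variation from cow to cow. A cytobrush collects surface epithelium together with blood cells and some stroma, and in such a mixture a changed methylation level and a changed share of a cell type cannot be told apart.

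The C2H2 zinc finger genes form the largest family of transcription factors in mammals. Most ZNF proteins bind DNA through an array of zinc fingers, and many carry a KRAB domain, which recruits TRIM28, the histone methyltransferase SETDB1 and DNA methyltransferases and so silences transposons and the fingers' other targets. ZBTB proteins join the fingers to a BTB domain, by which they pair and bind corepressors. A few read methylated DNA themselves. KRAB genes arose by tandem duplication and lie in clusters, above all on human chromosome 19, part of which corresponds to cattle chromosome 18, and the 3′ exons of zinc finger genes, which encode the fingers, are known as densely methylated gene bodies, whereas their promoters often lie in unmethylated CpG islands.

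The table gave the percent methylation of each position in each library, with no read counts, so the depth behind a value is unknown and no interval can be given for it. The authors kept positions with a value above zero in every library, so sites without methylation in any of them are missing. Over all positions the library means lay between 61.3% and 65.1%. Pairs of libraries had equal values at 3.04% to 10.4% of positions, so no 2 libraries held the same data, and libraries of 1 group correlated at 0.914 to 0.964 over positions, which are not independent. Positions on both strands of a CpG count separately, and 111 of the 1930 positions were followed by another on the next base. Exons, introns and promoters were not assigned, and positions are those of ARS-UCD1.2.

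The ZNF and ZBTB genes were among the more methylated genes of the endometrium. The mean over the 116 genes was 68.1% and the median 76.7% (quartiles 50.7% and 94.5%), against a mean of 61.3% and a median of 70.1% for the other 8254 autosomal genes with 2 or more positions. The excess lay at the top of the scale. A mean above 95% was found in 24 of the 116 genes (20.7%) and in 10.3% of the other genes, and a mean above 90% in 38 (32.8%) against 21.2%. Levels under 20% were found in 15 genes (12.9%), against 17.2% of the others, and 47 (40.5%) lay between 20% and 80%, against 45.5%. Counted by position, 37.3% of the zinc finger positions and 29.1% of those in other genes were above 95%. The number of positions per gene was similar, with medians of 6 and 5. Between libraries the gene means of the family varied little, with a median SD over all 16 libraries of 2.60 percentage points, against 2.93 for the other genes. These shares describe the table, and no test of the family against other genes was made.

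**Figure D1:**
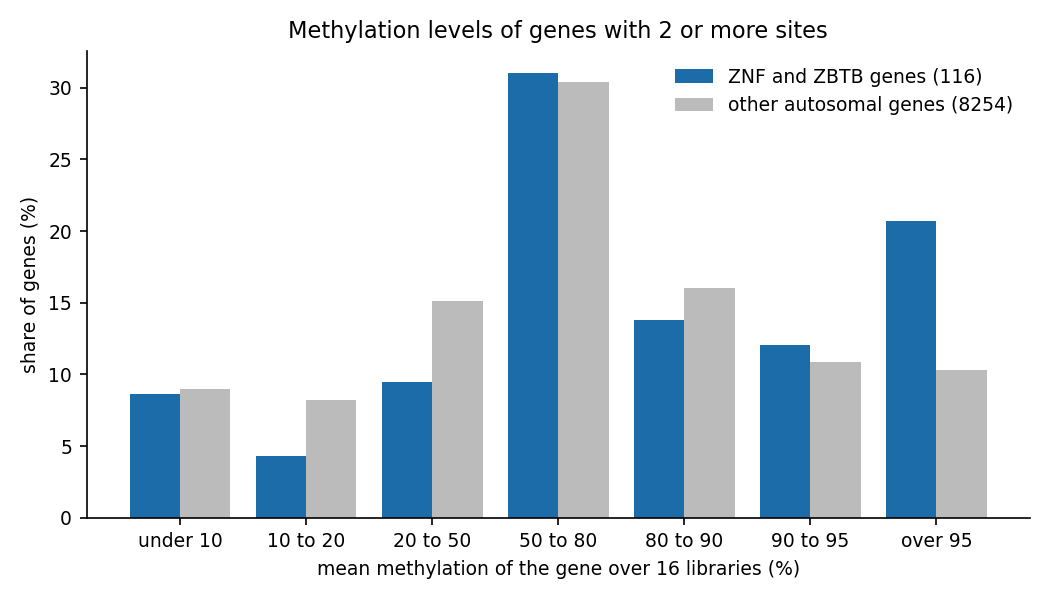
Share of genes (vertical axis, %) in 7 classes of mean methylation over 16 libraries (horizontal axis, %) for the 116 ZNF and ZBTB genes (blue) and the other 8254 autosomal genes with 2 or more positions (grey). In the class over 95% the blue bar reaches 20.7% and the grey bar 10.3%, and between 20% and 50% the order turns, with 9.48% against 15.1%.

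The most methylated genes with 5 or more positions were ZNF623 (98.4%, 9 positions on chromosome 14), ZNF691 and ZBTB21. ZNF691 had 97.0% ± 1.05 in CON_P and 98.6% ± 0.729 in MET_noP (SD, n = 4 libraries), with values between 95.03% and 99.5% over all libraries. ZBTB21, a BTB repressor, ranged from 95.7% to 99.2%. The smallest spread of all 116 genes was that of ZNF74, a KRAB gene with 33 positions on chromosome 17, which lay between 94.2% and 95.8% in all 16 libraries. ZNF648 had 32 positions close together on chromosome 16 (63169657 to 63170389), and its lowest library had 94.98%. ZNF532 and ZNF316 held 48 of 51 and 46 of 47 of their positions above 80%. ZNF532 is related to ZNF592 and ZNF687, which bind the chromatin reader ZMYND8, and ZNF687 with 4 positions lay at 93.3% in CON_P and 96.3% in MET_P.

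The least methylated genes with 5 or more positions were ZNF771, ZNF503 and ZNF703. ZNF503 and ZNF703 are the 2 members of the NET family of developmental corepressors, and ZNF703 is known as an oestrogen-receptor-associated oncogene of the mammary gland. ZNF771 held 57 positions in 661 bases of chromosome 25 (26591191 to 26591851), and its single positions lay between 14.6% and 31.5%. ZNF503 held 50 of its 55 positions in 599 bases of chromosome 28 (31133223 to 31133821), with a mean of 21.4% there. ZNF703 held 27 of its 49 positions in 487 bases of chromosome 27 (32980161 to 32980647), with a mean of 26.4%. No position of these 3 genes reached 80%. The other genes with more than 20 positions and none above 80% were ZNF467, ZNF414 and ZBTB45, whose 23 positions lay in 322 bases of chromosome 18 (65745083 to 65745404) at 24.5%.

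Several genes of low or intermediate level differed widely between libraries of the same group. The largest SD over the 16 libraries was that of ZNF467 (9.74 percentage points), followed among genes with 5 or more positions by ZBTB22 and ZNF703. In CON_P the 4 libraries had ZNF467 means of 53.3%, 25.5%, 37.3% and 22.3%, and in MET_noP of 25.1%, 14.7%, 42.5% and 38.3%. The values of CON_noP (29.5% to 38.4%) and MET_P (25.6% to 45.9%) overlapped with both, so ZNF467 did not separate any pair of groups. ZNF703 had 24.8%, 12.9%, 43.4% and 24.5% in the 4 MET_noP libraries. ZBTB22, with 5 positions on chromosome 23, ranged from 28.3% to 53.6%, and both ends lay in CON_P. MET_noP library 17 was the lowest and library 25 the highest of all 16 libraries in ZNF703 and ZBTB45, at 12.9% and 43.4% in the former and at 13.99% and 35.7% in the latter. The same libraries were the lowest and highest in ZNF414, at 16.6% and 41.9%, and library 17 was the lowest in ZNF467. These were chosen after their values were seen, and whether the libraries differed in cell composition was not tested.

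Many of the genes held both methylated and sparsely methylated stretches. Of the 80 genes with 5 or more positions, 39 (48.8%) had positions under 20% as well as positions over 80%, as did 47.4% of the other autosomal genes of that size. A further 18 (22.5%) had every position above 80%, against 12.6% of the others, and none had every position under 20%, against 2.71%. Runs of 3 or more positions with gaps of at most 200 bases were found 212 times in 95 genes, and 141 of these runs had a mean over 80%, 11 a mean under 20% and 60 a mean between.

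ZNF787, with 115 positions the gene measured most densely, varied in level along its 15552 bases of chromosome 18. Its longest run, 51 positions in 262 bases (63497502 to 63497763), had a mean of 80.3%. Next to it 11 positions (63499231 to 63499317) had 94.9%, and the next 4 positions (63499573 to 63499598) had 38.7%. Toward the other end, 6 positions (63505343 to 63505397) had 96.8% and the 7 positions from 63507763 to 63508113 had 22.1%. The steps between these runs were larger than the differences between groups within them. In the run at 22.1% the group means were 23.2% ± 6.59, 18.998% ± 3.45, 21.1% ± 1.86 and 24.9% ± 8.98 (SD, n = 4) in CON_P, CON_noP, MET_P and MET_noP.

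ZNF423, ZNF536 and ZNF524 followed in number of positions. ZNF423, a factor of adipocyte and neural development and a SMAD partner in BMP signalling, had 95 positions over 343665 bases of chromosome 18, of which 44 lay between 20% and 80%, 39 above and 12 below. ZNF536, a repressor of neuronal differentiation, had 80 positions over 337739 bases, and a run of 24 positions in 58 bases (41143690 to 41143747) lay at 32.6%, while 8 positions from 41070550 to 41070611 lay at 95.7%. In ZNF524 68 of 84 positions were above 80%, and a single run of 6 (61926680 to 61926723) lay at 40.2%. ZNF71, a KRAB gene, had all of its 60 positions in 585 bases (63847082 to 63847666), 45 above 80% and none under 20%.

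The 30 genes with 1 position looked different from those with a mean. In 25 of them (83.3%) the position was under 20% methylated, against 78.2% of the other autosomal genes with 1 position, and the medians were 8.80% and 9.24%. Only ZNF18, ZNF35, ZNF621 and ZNF629 had a single position above 80%, and ZNF500 had one at 49.1%. Low single positions were found in several KRAB genes of chromosome 18, among them ZNF181, ZNF566 and ZNF420, whose group means lay between 5.07% and 14.5%. These 3 lie in 1 cluster with ZBTB32, a lymphocyte repressor, in which no gene had a second position.

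The 22 ZBTB genes with a mean covered the whole range, with a median of 73.8% against 78.0% for the 94 ZNF genes. At the low end were ZBTB24, which is mutated in a form of ICF syndrome with loss of satellite methylation, and ZBTB7B, the ThPOK factor of helper T cells. Both rested on 2 positions, with group means of 7.16% to 13.7% and of 17.1% to 20.9%. Of the methyl-CpG binding proteins, ZBTB4 held 2 positions under 20% and 2 above 80%, for group means of 49.4% to 51.4%, and ZBTB38 lay at 84.9% to 96.2% over 3 positions. ZBTB16, the PLZF factor that progesterone induces in endometrial stroma, had 25 positions over 180713 bases, with group means of 49.0% to 53.1% and single positions from 5.43% to 97.0%. ZBTB7A, a repressor of fetal globin, and ZBTB7C, its relative, had 70.1% to 72.4% and 63.4% to 65.1%. ZBTB46, a factor of dendritic cells, had 78.8% ± 5.43 in CON_P and 73.1% ± 2.75 in MET_noP (SD, n = 4). ZBTB17, the MYC partner MIZ1, had 84.5% in CON_P and 90.03% in MET_P, and ZBTB20, a repressor in liver and brain, 86.7% and 92.4%. At the upper end, ZBTB2, ZBTB37 and ZBTB21 lay above 94% in every group.

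By chromosome, 34 of the 146 genes lay on chromosome 18 (26 with a mean), 13 on chromosome 25 and 8 each on chromosomes 4, 7 and 13. Genes of RefSeq on chromosome 18 numbered 94, of which 32 had a position. The 26 averaged genes of chromosome 18 had a mean of 75.1% and 10 of them were over 90%. When 3 or more genes within 1 Mb of the next were taken as a cluster, 11 clusters with 51 genes were found, 5 of them on chromosome 18.

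Among the clusters with more than 2 averaged genes, the one at the start of chromosome 14 (243228 to 1072703) had the most uniform gene means. ZNF250, ZNF34, ZNF7 and ZNF623 lay between 96.3% and 98.4%, while the 36 other genes between them had a mean of 64.0%. Another of its genes, ZNF16, had a single position at 6.39%. The cluster on chromosome 4 (112232047 to 112711581) holds the KRAB genes ZNF786, ZNF398, ZNF212, ZNF777 and ZNF746 beside ZNF467 and ZNF862, and its 7 means ran from 33.0% in ZNF467 to 97.5% in ZNF212. ZNF746 is known as PARIS, a repressor of PGC-1α, and lay at 74.5% to 77.1%. On chromosome 25, ZNF853 and ZNF316 lay at 94.4% and 94.7%, and at 26.6 Mb ZNF771 with 19.95% stood near ZNF689 with 82.4%. The cluster on chromosome 7 held ZNF358 with 97.3% and ZNF414 with 29.2%.

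The last 2 clusters of chromosome 18 showed the same spread within short distances. Between 63496957 and 63847666, ZNF471 lay at 8.49% (3 positions) and ZNF71 at 86.4%. Between 65499745 and 65745404, ZBTB45 lay at 24.5% and the other 5 genes between 75.1% and 97.9%, with ZNF446 the highest. In both, the MET means were above the CON means for either outcome. In the first, the cluster mean was 64.3% ± 1.18 in MET_P and 62.5% ± 2.09 in CON_P, and 63.8% ± 1.49 in MET_noP and 61.8% ± 1.95 in CON_noP (SD, n = 4). In the second it was 81.2% ± 1.13 and 79.5% ± 0.449, and 81.8% ± 2.11 and 80.1% ± 1.94. These differences, between 1.71 and 1.96 percentage points, were not tested. Both SDs were exceeded for MET_noP and CON_noP in the first cluster and for MET_P and CON_P in the second. In the other clusters with 2 or more averaged genes the sign differed between outcomes.

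**Figure D2:**
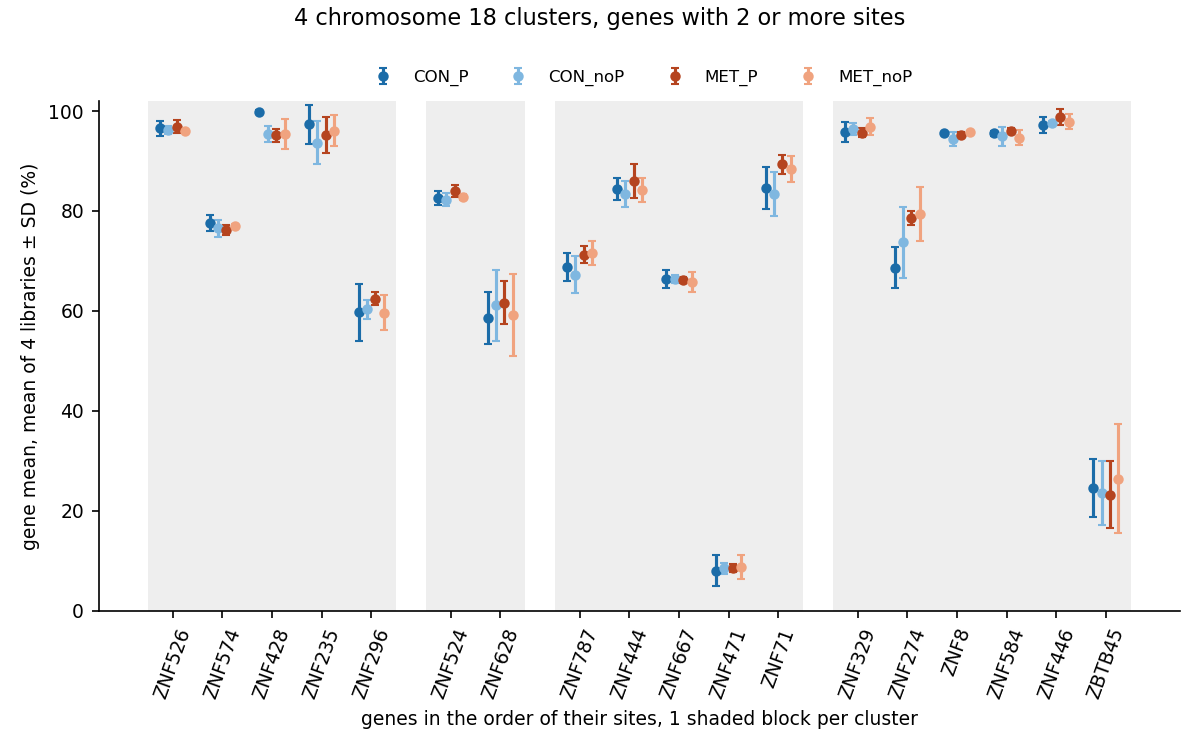
Gene means (vertical axis, %) of the genes with 2 or more positions in 4 clusters of chromosome 18, in the order of their positions, with 1 point per group (mean of 4 libraries) and bars for 1 SD. ZNF471 at 8.49% and ZBTB45 at 24.5% lie far below their neighbours, and the group means lie farthest apart in ZNF274, from 68.7% in CON_P to 79.4% in MET_noP.

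Averaged over the 116 genes, the level was lowest in CON_noP. In the order CON_P, CON_noP, MET_P and MET_noP the group means were 68.3% ± 0.691, 67.2% ± 0.591, 68.5% ± 0.283 and 68.6% ± 0.974 (SD, n = 4). Single libraries lay between 66.7% and 69.5%, and the groups overlapped. The other autosomal genes followed the same order at the low end, with 61.3%, 60.6%, 61.9% and 61.6%, and the excess of the zinc finger genes over them was 7.03, 6.55, 6.65 and 6.96 percentage points. Of the 1.39 percentage points by which MET_noP exceeded CON_noP, 0.403 were left after the other genes' change was taken off. For MET_P over CON_P the difference of 0.212 became -0.371.

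**Figure D3:**
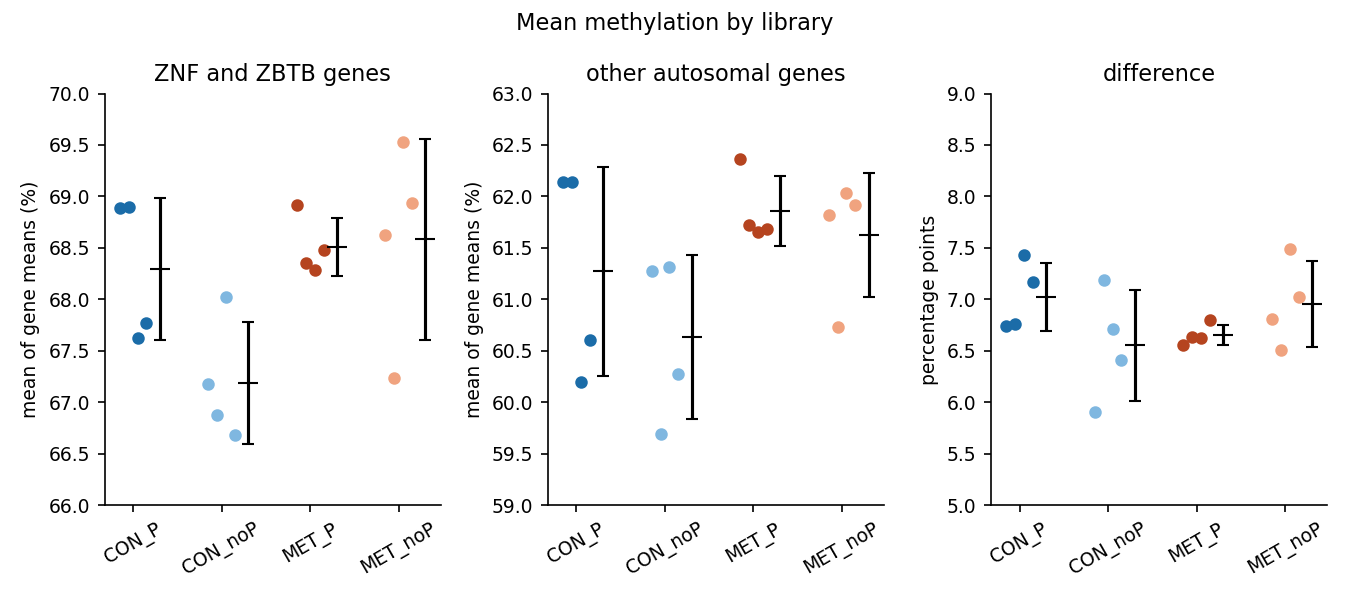
Mean of the gene means in each library (points) and mean with 1 SD of each group (black bars), for the 116 ZNF and ZBTB genes, the other 8254 autosomal genes (vertical axes in %) and the difference of both (percentage points). CON_noP libraries 28, 16 and 12 hold the lowest zinc finger means, between 66.7% and 67.2%, and the difference lies between 5.91 and 7.49 percentage points in all libraries.

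The first comparison asked whether cows on the control diet that became pregnant differed at breeding from those that did not. No ZNF or ZBTB gene was called. Of the 116 genes 85 (73.3%) had the higher mean in CON_P, against 59.2% of all 8719 genes, with median differences of 0.608 and 0.438 percentage points. Leaving out any 1 library gave counts of 72 to 85. In limma with Benjamini-Hochberg adjustment over all genes, 0% of the 8719 genes and none of the 116 had an adjusted p under 0.05, and the family reached 0.413 at its lowest. At an unadjusted p under 0.05, 5 genes were higher and 1 lower, which is 5.17% of the 116, where 2.16% of all genes were higher and 1.34% lower. In 4 of the 116 genes CON_P and CON_noP had no overlap, against 1.95% of all genes.

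ZNF428 had the lowest p of the family. Its 4 positions lie in 31 bases of chromosome 18 (51829527 to 51829557), and the mean was 99.1%, 100%, 100% and 100% in the CON_P libraries and 96.4%, 93.8%, 94.4% and 97.1% in the CON_noP libraries. The groups did not overlap, and the difference was 4.36 percentage points, or 2.27 ± 0.293 (SE) on the log2 ratio scale of the test (limma adjusted p = 0.413; exact permutation p = 0.0286, the smallest that 4 libraries against 4 can give). MET_P (93.4% to 96.4%) and MET_noP (91.3% to 98.2%) lay in the range around CON_noP, so the CON_P libraries stood above all other 12. At unknown depth, values of exactly 100% may rest on few reads.

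ZNF398, also called ZER6 and first described by its binding to oestrogen receptor alpha, was also higher in CON_P without overlap. Its 3 positions in 51 bases of chromosome 4 (112279639 to 112279689) had 95.2%, 96%, 98.0% and 95.2% in CON_P and 88.1%, 94.4%, 90.8% and 91.2% in CON_noP. The difference was 4.9996 percentage points (limma adjusted p = 0.9998). Here CON_noP stood apart, since MET_P lay between 94.6% and 97.3% and MET_noP between 95.7% and 100%. ZBTB7B, with 2 positions, had 20.9% ± 1.54 in CON_P and 17.1% ± 3.04 in CON_noP (SD, n = 4) without overlap, at an unadjusted limma p of 0.0825.

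ZBTB12, with 3 positions in 44 bases of chromosome 23 (27464493 to 27464536), had the largest difference. It had 47.4%, 50.9%, 34.3% and 39.2% in CON_P and 25%, 27.8%, 38.1% and 28.8% in CON_noP, so that 1 library of CON_noP overlapped with CON_P. ZNF414 had a gene mean of 33.0% ± 3.86 in CON_P and 27.4% ± 1.69 in CON_noP (SD, n = 4), with 15 of its 21 positions higher in CON_P. ZNF853, with 10 positions, had 95.5% ± 1.15 and 92.3% ± 1.99. ZNF142 was the gene lower in CON_P, with 84.6% ± 0.528 against 87.3% ± 1.45 and no overlap. All 4 had a limma adjusted p of 0.9998.

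In the MET cows no ZNF or ZBTB gene was called either. MET_P was higher in 61 of the 116 genes (52.6%), against 55.7% of all genes. None of the 116 and 0% of all genes passed the adjusted limma test, and the lowest adjusted p of the family was 0.810. At an unadjusted p under 0.05, 1 gene was higher and 3 were lower, where 3.67% of all genes were higher and 1.92% lower, and 1 gene did not overlap, against 3.44% of all genes. The genes at an unadjusted p under 0.05 were ZNF70, ZBTB38 and ZBTB12, lower in MET_P, and ZBTB24, higher.

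ZBTB12 had 28.1%, 35.8%, 33.0% and 31.7% in MET_P and 38.5%, 33.9%, 53.3% and 46.0% in MET_noP. The difference of -10.8 percentage points is of the opposite sign to that in the CON cows. ZBTB38, which binds methylated CpGs, had 89.0% ± 3.85 in MET_P and 96.2% ± 3.29 in MET_noP (SD, n = 4). ZNF70 had a difference of -1.02 percentage points at a level near 97%, with SDs of 0.484 and 0.336. ZNF697, with 3 positions over 29809 bases, had 68.0% ± 0.284 and 65.7% ± 1.198 without overlap, at an unadjusted limma p of 0.175.

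RPM was compared with the control diet among the cows that became pregnant. Here the lowest adjusted p of the family was found, 0.0635 for ZNF428, above the threshold. MET_P was higher in 68 of the 116 genes (58.6%), against 60.1% of all genes, and 0% of all genes passed the adjusted limma test. At an unadjusted p under 0.05, 4 genes were higher and 4 lower, where 5.47% of all genes were higher and 1.79% lower. In 5 genes the groups did not overlap, against 3.81% of all genes.

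ZNF428 had 95.5%, 93.4%, 95.2% and 96.4% in MET_P against 99.1% to 100% in CON_P. The difference was -4.65 percentage points, or -2.37 ± 0.261 (SE) on the log2 ratio scale. Over all alternatives its adjusted limma p ran from 0.0200 to 0.719. The lowest came when CON_P library 14, the 1 library of that group below 100%, was left out, as each library was in turn. The CON_P libraries left were then all at exactly 100%, with no spread between them. The count over all genes in that setting is not given here. The 2 comparisons with a low p for ZNF428 share the CON_P libraries.

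ZNF274 is a KRAB protein that recruits SETDB1 to the 3′ ends of zinc finger genes. Its 14 positions lie on chromosome 18 (65568296 to 65568700), and the mean was 80.6%, 77.6%, 77.6% and 78.4% in MET_P and 63.4%, 71.0%, 67.8% and 72.6% in CON_P. The groups did not overlap, all 14 positions were higher in MET_P, and the difference was 9.85 percentage points (0.71 ± 0.157 (SE) on the log2 ratio scale; limma adjusted p = 0.666). The difference lay mainly in the first run of 11 positions in 77 bases, with 74.0% ± 2.14 against 62.1% ± 4.03 (SD, n = 4), while the other 3 positions, a separate run, had 95.3% and 93.0%. In cows that did not become pregnant ZNF274 had 79.4% ± 5.40 in MET_noP and 73.7% ± 7.12 in CON_noP, and these groups overlapped, with CON_noP library 12 at 84.2%.

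ZNF71 was higher in MET_P at 54 of its 60 positions, with gene means of 91.3%, 89.9%, 86.9% and 89.2% against 78.5%, 87.8%, 85.3% and 87.0%. The ranges overlapped, and the unadjusted limma p was 0.0450. ZNF704, with 3 positions over 73167 bases, had 41.3% ± 0.675 and 36.0% ± 0.777 without overlap. ZNF236 was higher by 1.68 percentage points at 97.4%. ZBTB12 and ZNF276 were lower in MET_P, with differences of -10.8 and -9.87 percentage points over 3 positions each, and ZNF622, a ribosome maturation factor, with -2.89 at a level under 10%. ZNF142 again had no overlap, with 86.8% ± 1.40 in MET_P above 84.6% ± 0.528 in CON_P.

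The diets were also compared among cows that did not become pregnant. MET_noP had the higher mean in 88 of the 116 genes (75.9%), against 63.1% of all genes, with median differences of 1.13 and 0.634 percentage points, and in 83 to 94 genes with 1 library left out. None of the 116 genes and 0% of all genes passed the adjusted limma test, and the lowest adjusted p was that of ZNF398 (0.682). Without adjustment 7 genes were higher and 2 lower at a p under 0.05, which is 7.76% of the 116, where 4.75% of all genes were higher and 1.64% lower. In 5 genes the groups did not overlap, against 3.75% of all genes.

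ZNF398 had the lowest p, with 99.2%, 100%, 97.6% and 95.7% in MET_noP against 88.1% to 94.4% in CON_noP. The difference of 7.01 percentage points (2.12 ± 0.511 (SE) on the log2 ratio scale; limma adjusted p = 0.682) rests on the same CON_noP libraries as that in the first comparison. ZBTB12 was higher by 13.001 and ZBTB38 by 11.3 percentage points, both with overlap. ZBTB38 had 100%, 92.0%, 95.8% and 96.9% in MET_noP and 96.5%, 80%, 79.3% and 83.7% in CON_noP, of which library 12 alone reached the MET_noP range. ZNF385C, ZNF653, ZNF219 and ZNF613 were higher by 5.50, 3.09, 4.53 and 3.10 percentage points. ZNF653 is a corepressor of the steroidogenic factor SF-1.

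ZNF212 and ZNF462 were lower in MET_noP without overlap, from levels near 97.6%, with differences of -0.974 and -1.499 percentage points. ZNF8 and ZNF451, a SUMO ligase, were higher without overlap by 1.40 and 1.485 percentage points at unadjusted limma p-values of 0.0689 and 0.150. In ZNF787 89 of the 115 positions were higher in MET_noP, and the gene mean was 71.6% ± 2.41 against 67.3% ± 3.76 (SD, n = 4). ZNF71 was higher at 51 of 60 positions, with 88.3% ± 2.61 against 83.4% ± 4.49. Neighbouring positions are read on the same fragments and are not independent of each other.

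**Figure D4:**
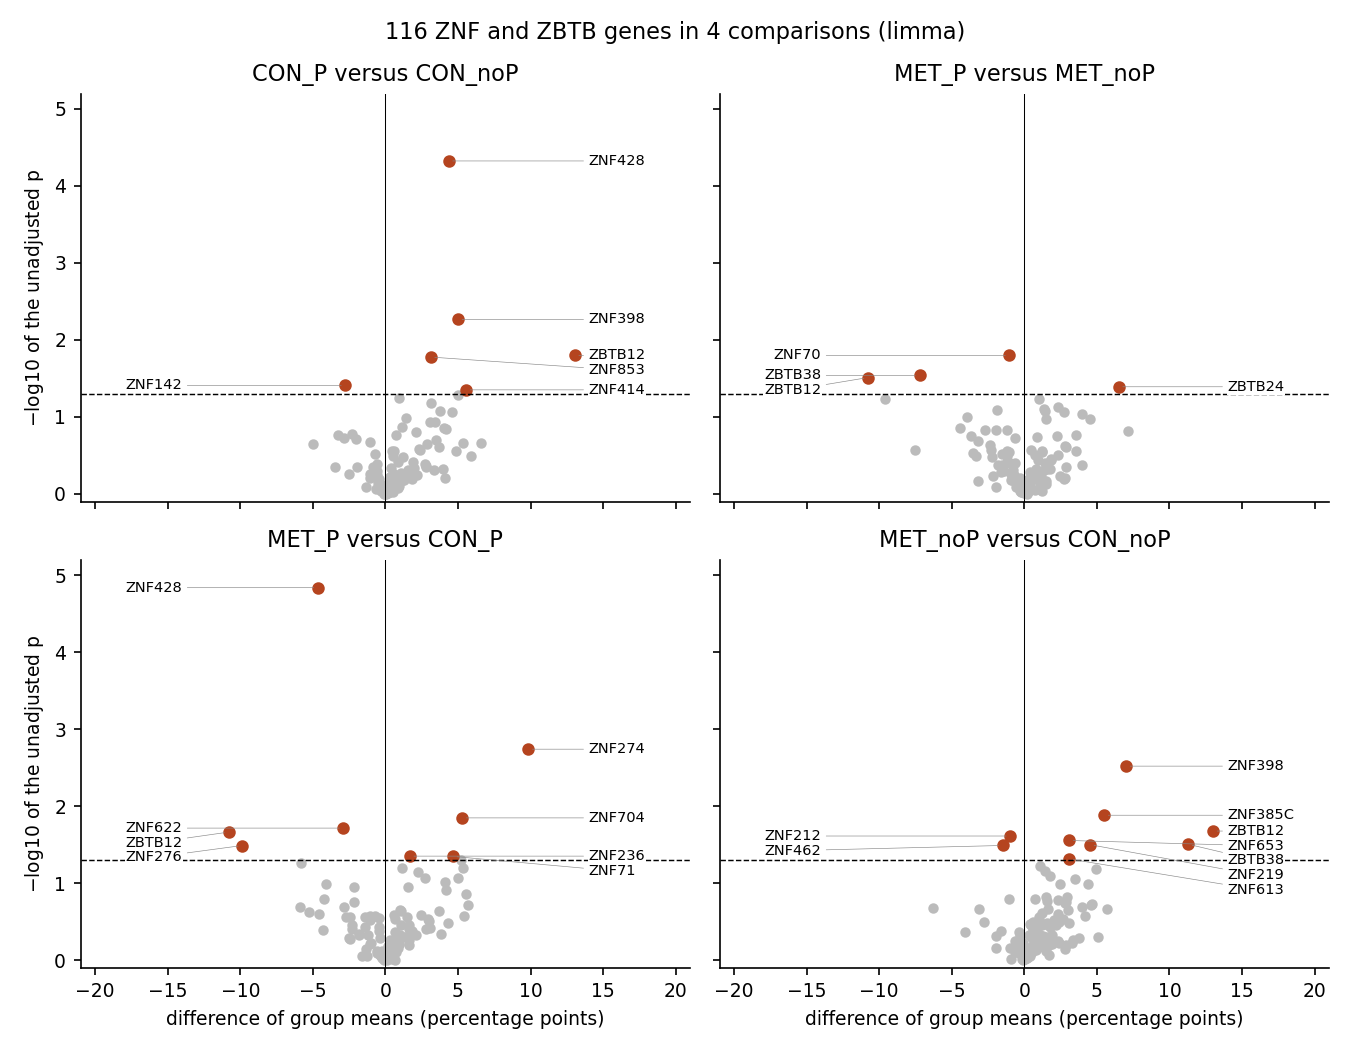
Difference of group means (horizontal axis, percentage points) and −log10 of the unadjusted limma p (vertical axis) for the 116 genes in the 4 comparisons, with genes under 0.05 (dashed line) in red and named. ZNF428 stands highest in both comparisons with CON_P, at 4.36 and -4.65 percentage points, and ZBTB12 lies at 13.04, -10.8, -10.8 and 13.001 percentage points.

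These directions depend in part on how the libraries are scaled. On the log2 ratio scale 72.4% of the 116 genes were higher in CON_P than in CON_noP, and 56.9% after every library was centred on the same median. For MET_noP and CON_noP the shares were 75.9% and 50.0%, for MET_P and CON_P 57.8% and 36.2%, and for MET_P and MET_noP 51.7% and 37.9%. Over all 8719 genes the shares fell in the same way, from 59.7% to 46.9%, from 62.95% to 38.9%, from 59.1% to 38.4% and from 55.4% to 43.9%. In MET_P and CON_P the centring moved the median of all genes from 0.05 to -0.08 on that scale, and of the family from 0.02 to -0.11. The genes of the family at an unadjusted limma p under 0.05 were then 1 higher and 5 lower in MET_P than in CON_P. In MET_noP versus CON_noP they were 3 higher and 2 lower. Of all 8719 genes 561 were then under that p in MET_P versus CON_P, 214 of them higher. For MET_noP and CON_noP it was 497 genes, 185 of them higher.

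Whether the difference between outcomes itself depended on the diet was tested as an interaction over all 16 libraries. None of the 116 genes and 0% of all genes passed the adjusted limma test, and the lowest adjusted p was 0.763 (ZNF428). At an unadjusted p under 0.05, 1 gene had a more positive difference in the MET cows and 5 a more negative one, where 2.55% and 2.86% of all genes did. For ZBTB12 the difference between outcomes was 13.04 percentage points in the CON cows and -10.8 in the MET cows, and the MET value minus the CON value was -23.8 (limma adjusted p = 0.877). CON_P and MET_noP thus held its higher means, 43.0% and 42.9%, and CON_noP and MET_P its lower ones, 29.9% and 32.1%. The others were ZNF428, ZNF398, ZBTB38 and ZNF8, more negative in the MET cows, and ZBTB24, more positive, with -1.98 and 6.50 percentage points.

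**Figure D5:**
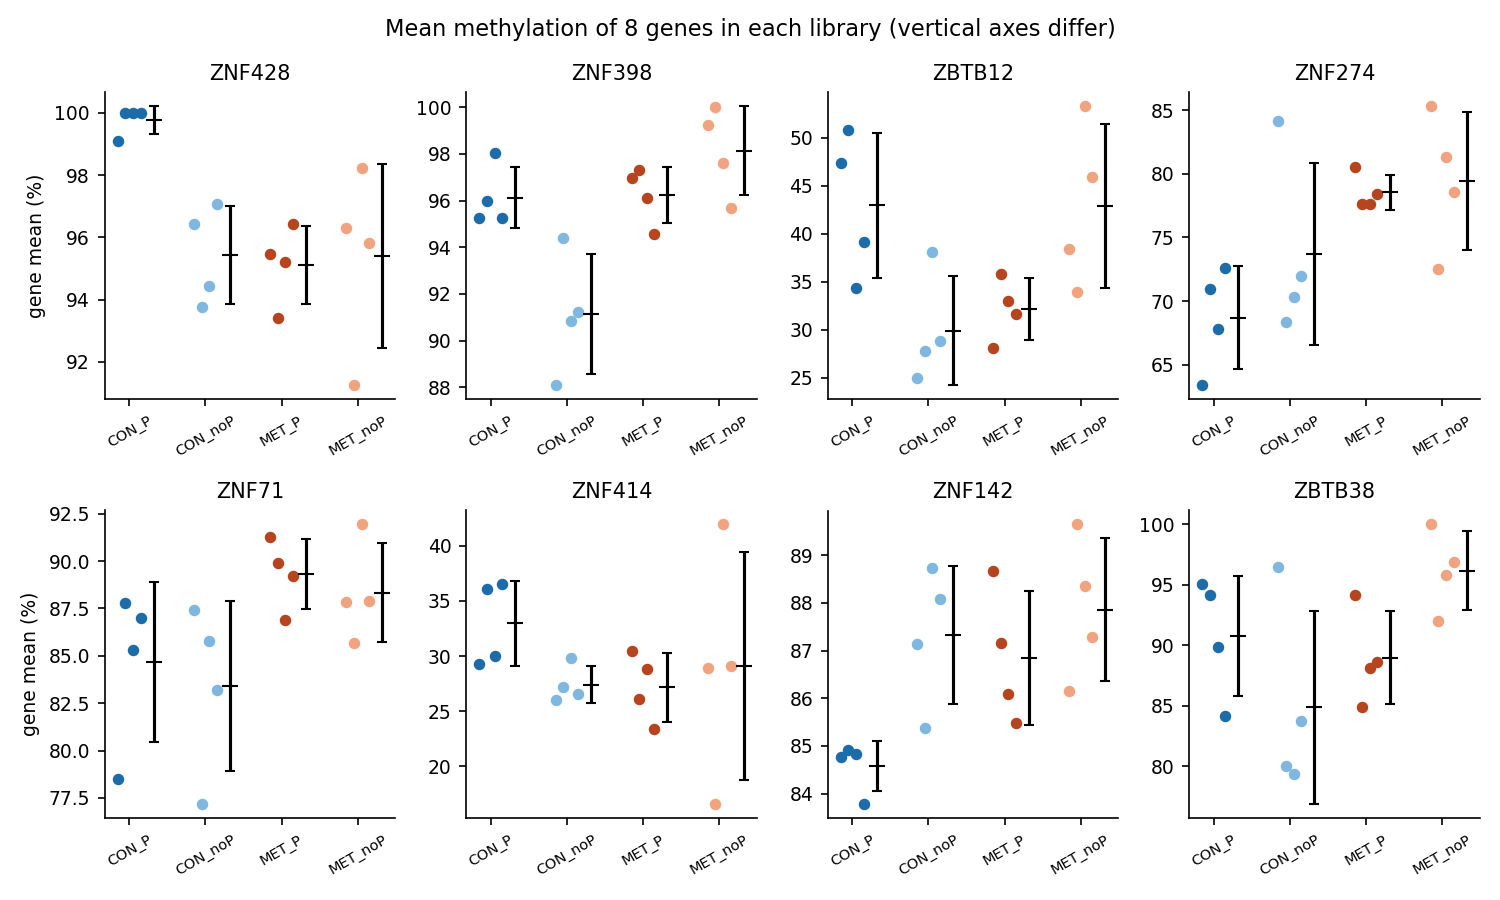
Gene means of 8 genes (vertical axes, %, with different ranges) in each library (points) by group, with the mean and 1 SD of the 4 libraries (black). The CON_P libraries of ZNF428 lie at 99.1% to 100% above all others, CON_noP is lowest in ZNF398, and CON_P and MET_noP are the higher groups in ZBTB12.

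At single positions no member passed the adjusted limma test either. For CON_P and CON_noP 70 of the 1930 positions (3.63%) had an unadjusted p under 0.05, against 3.93% of all positions, and 55 were higher and 15 lower in CON_P, where 2.53% of all positions were higher and 1.4% lower. For MET_P and MET_noP there were 93 (4.82%), against 5.12%, and 39 were higher and 54 lower in MET_P, where 2.57% of all were higher and 2.55% lower. In MET_P and CON_P 126 (6.53%) were found, against 5.83%, with 53 higher and 73 lower in MET_P, where 3.06% of all were higher and 2.77% lower. In MET_noP and CON_noP there were 116 (6.01%), against 5.13%, with 92 higher and 24 lower in MET_noP, where 3.36% of all were higher and 1.77% lower. The interaction had 105 (5.44%), against 5.25%, of which 25 were more positive and 80 more negative in the MET cows, where 2.06% and 3.19% of all positions were. The lowest adjusted p of a member position was 0.119. Without overlap, 22 of the 1930 positions were higher and 3 lower in CON_P than in CON_noP, against 2438 and 1536 of all 199395. For MET_P and MET_noP these counts were 24 and 21, against 3272 and 2504. MET_P and CON_P had 35 and 26, against 3824 and 2333, and MET_noP and CON_noP 37 and 11, against 3681 and 1801. The family holds 0.968% of all positions.

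The position with the largest difference without overlap was chr7:17112764 in ZNF414. It had 65.0% ± 5.14 in CON_P and 29.5% ± 3.98 in CON_noP (SD, n = 4), and the means of MET_P (43.1% ± 4.74) and MET_noP (44.4% ± 17.3) lay between them (limma adjusted p = 0.435 for the CON groups; exact permutation p = 0.0286). It opens a run of 8 positions in 105 bases with 47.3% ± 5.28 in CON_P and 34.9% ± 2.502 in CON_noP. The last run, of 7 positions (17113629 to 17113767), had 10.4% and 12.5%. In the ZNF274 run, chr18:65568317 had 82.6% ± 12.9 in MET_noP and 56.6% ± 7.58 in CON_noP, with 69.5% ± 5.34 in MET_P and 57.7% ± 2.59 in CON_P.

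In ZNF524 the position chr18:61926714, in the run at 40.2%, had 41.1% ± 19.6 in MET_P and 15.5% ± 4.74 in MET_noP, and CON_noP had 40.2% ± 12.4 and CON_P 25.1% ± 7.92. ZNF787, the gene with the most positions, had 6 of 115 without overlap in MET_P versus CON_P and 6 in MET_noP versus CON_noP. It had 3 in each other comparison. Of all 199395 positions, 3824 were higher and 2333 lower without overlap in MET_P than in CON_P. For MET_noP versus CON_noP the counts were 3681 and 1801. For CON_P versus CON_noP they were 2438 and 1536, and for MET_P versus MET_noP 3272 and 2504. Of the positions picked for the largest differences, 2 lay in the longest run of ZNF787. The first, chr18:63497575, had 86.8% ± 7.40 in MET_P and 64.5% ± 4.69 in CON_P, and the second, chr18:63497652, had 92.8% ± 1.80 in MET_noP and 70.9% ± 17.3 in CON_noP. In ZNF276, chr18:14597957 had 44.6% ± 7.76 in MET_P, below 67.5% ± 8.33 in CON_P and 63.4% ± 5.25 in MET_noP. Further positions without overlap were chr18:18289922 in ZNF423 (87.9% in MET_P, 67.2% in CON_P), chr7:19967060 in ZBTB7A (89.2% in CON_P, 68.3% in CON_noP), chr24:2649828 in ZNF516 (66.6% in MET_noP, 82.2% in CON_noP) and chr25:3840624 in ZNF500 (39.8% in MET_P, 59.1% in MET_noP). Smaller differences without overlap were found at chr18:61946039 in ZNF524 (97.1% in MET_P, 82.4% in MET_noP), chr24:2398466 in ZNF236 (91.6% in CON_P, 98.8% in CON_noP) and chr2:106603415 in ZNF142 (93.4% in CON_P, 99.7% in CON_noP). The limma adjusted p-values of these positions were 0.598 or above. ZNF521, a relative of ZNF423, had 7 positions, with gene means of 56.4% ± 3.45, 52.9% ± 2.21, 57.1% ± 2.39 and 53.2% ± 2.06 (SD, n = 4) in CON_P, CON_noP, MET_P and MET_noP. ZNF618, with 13 positions, had 83.8% ± 2.95, 83.4% ± 1.94, 85.1% ± 2.32 and 80.6% ± 5.11 in the same order.

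Among the listed groups, the 4 averaged genes tied to methylated DNA or heterochromatin (ZBTB4, ZBTB24, ZBTB38 and ZNF274, of 6 listed) had means of 54.3%, 54.6%, 58.1% and 58.5% in CON_P, CON_noP, MET_P and MET_noP. ZNF274 was the one at an unadjusted p under 0.05 between MET_P and CON_P, ZBTB38 between MET_noP and CON_noP, and ZBTB24 and ZBTB38 between MET_P and MET_noP. The 26 averaged genes of 35 with roles in development or hormone signalling had means of 65.9%, 64.4%, 65.8% and 65.9%. Of them ZNF653 was higher and ZNF462 lower in MET_noP at an unadjusted p under 0.05, and none was so in the other 3 comparisons. The zinc finger genes with ZFP, ZSCAN or ZKSCAN symbols, 8 averaged of 11, had a mean of 68.8%. At an unadjusted p under 0.05, 1 of them was lower in CON_P than in CON_noP and 1 higher in MET_P than in CON_P. Of all genes 2.16% were higher and 1.34% lower at that p in CON_P versus CON_noP, and 3.67% and 1.92% in MET_P versus MET_noP. The shares were 5.47% and 1.79% in MET_P versus CON_P, and 4.75% and 1.64% in MET_noP versus CON_noP. These few genes are not a result about the lists.

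None of the partners through which these proteins act passed the adjusted limma test. Of 19 genes of KRAB silencing 8 had a gene mean, and PPHLN1, a subunit of the HUSH complex, was the 1 gene at an unadjusted limma p under 0.05, with 3.02 percentage points for CON_P minus CON_noP and -2.86 for MET_P minus CON_P over 2 positions. At that p 2.16% of all genes were higher in CON_P than in CON_noP and 1.79% lower in MET_P than in CON_P. DNMT3A had 60.7% and DNMT3B 61.6%. Of 9 BTB corepressors and relatives 6 had a mean, and none reached an unadjusted p under 0.05. BCL6, the BTB repressor of germinal centre B cells, had 49.8% ± 17.2, 42.6% ± 5.46, 35.7% ± 7.33 and 47.5% ± 12.5 (SD, n = 4) in CON_P, CON_noP, MET_P and MET_noP.

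The mixture of cells was described by methylation of marker genes, since the table holds no expression. For leukocytes 12 of 18 genes had a mean, with group means, in the same order as above, of 55.4% ± 3.73, 55.5% ± 1.476, 56.7% ± 0.767 and 54.5% ± 1.31 (SD, n = 4). SPI1, a myeloid factor, was higher in MET_P than in CON_P by 9.19 percentage points. IKZF1, a lymphoid factor, was lower in MET_noP than in CON_noP, with a difference of -6.07. Both had an unadjusted limma p under 0.05. Of all genes 5.47% were higher in MET_P than in CON_P and 1.64% lower in MET_noP than in CON_noP at that p. For epithelium 10 of 16 genes had means of 35.5% ± 4.95, 33.6% ± 2.43, 33.5% ± 1.56 and 35.05% ± 5.18, and for stroma 7 of 10 had 32.1% ± 1.44, 33.1% ± 1.74, 33.3% ± 0.929 and 33.7% ± 1.38. The epithelial range within CON_P, from 28.9% to 40.8%, was wider than any difference between group means. Their part in the zinc finger values was not tested.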

How the data were processed

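RRBS reads were trimmed (Trim Galore) and aligned (Bismark, ARS-UCD1.2) by the authors, who quantified positions with at least 10 reads in SeqMonk. The values deposited by the authors are percent methylation per position and library, with the overlapping gene, without normalization between libraries. Columns were assigned to groups by group name and library number, and each library was 1 replicate, so p-values measure the spread between libraries.

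The members and lists were chosen with earlier results of these data known. Gene means (2 or more positions) and positions were transformed to M = log2((percent + 1)/(100 - percent + 1)) and tested with limma 3.58.1 in R 4.3.3 without trend, on the 8 libraries of a comparison (16 for the interaction), with Benjamini-Hochberg adjustment over 8719 genes or 199395 positions and a threshold of 0.05. The logistic regression of the study needs read counts and was not repeated. The test was tested on simulated data. Exact permutation tests were two-sided. Summaries and figures used Python 3.11.15, pandas 2.3.3, scipy 1.17.1 and matplotlib 3.10.9.

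Named genes were 5 of those the paper names (ZNF414, ZNF787, ZNF274, ZNF423 and ZNF521), up to 3 a direction and comparison with 3 or more positions and no overlap, those with most positions, the lowest, highest and most variable, the ZBTB genes, cluster extremes and single positions with the largest difference. All other genes were chosen after their values were seen. 1 gene with such a symbol was left out of the members and, like some other items, is not reported here.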

Additional observations from a re-analysis of the deposited data

Results flagged for a closer look

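Of 260 groups of 4 libraries, from 64 named genes and the mean over the family, 11 (4.23%) held a library set apart from the other 3 by Dixon's test, which flags about 1 in 20 groups by chance. Libraries that stood below the rest of their group were CON_P library 14 in ZNF428 (99.1%, the others 100%), library 30 in ZBTB48 (48.0%) and in ZNF142 (83.8%) and library 26 in ZNF653 (82.1%). In CON_noP it was library 28 in ZBTB40 (86.0%). In MET_P it was library 27 in ZBTB21 (97.4%) and library 19 in ZNF653 (85.5%), and in MET_noP library 17 in ZBTB7A (68.7%) and ZNF212 (95.8%) and library 13 in ZNF70 (97.2%). MET_noP library 25 stood above the others in ZBTB24, a gene with 2 positions, at 13.2% against 4.36% to 5.602%.

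The interaction of outcome and diet had an unadjusted limma p under 0.05 in 6 of the 116 genes (5.17%), and an adjusted p under 0.05 in none. Of all 8719 genes 471 were under that unadjusted p, with 2.55% more positive and 2.86% more negative in the MET cows. The difference in the MET cows minus that in the CON cows was -4.63 percentage points for ZNF428, -23.8 for ZBTB12, -6.89 for ZNF398, -13.1 for ZBTB38, -1.81 for ZNF8 and 8.48 for ZBTB24.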

How the results depend on the processing

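No paired analysis was possible by replicate number because the columns carry library numbers and not the replicate numbers of the labels. The library numbers 12 to 15, 16 to 19, 24 to 27 and 28 to 31 form sets that each hold every group. What these sets stand for is not given, and results by set are not reported here. After centring of the libraries the median difference over the family turned from 0.02 to -0.11 on the log2 ratio scale in MET_P versus CON_P, from 0.01 to -0.05 in MET_P versus MET_noP and from 0.13 to -0.007 in MET_noP versus CON_noP. Leaving out 1 library gave 0 to 1 genes of the family with an adjusted limma p under 0.05 in MET_P versus CON_P and 0 in the other gene tests. The 1 gene was ZNF428 without CON_P library 14, at -2.60 on the log2 ratio scale. The CON_P libraries left were all at 100% in ZNF428, and the count over all genes in that setting is not given here. With an offset of 0.1 in place of 1 percentage point, 2, 10, 10 and 5 positions of the family passed in the 4 comparisons. In each of these positions 1 group was at 100% in all of its libraries. The count over all positions at that offset is not given here, so these counts are not a result about the family. The CON_P minus CON_noP level was 0.301 percentage points by the median over genes, and relative to the other autosomal genes MET_P minus CON_P turned from 0.212 to -0.371 and MET_noP minus CON_noP 0.403. Counts at an unadjusted p under 0.05 moved by more than 1.5 times from 4 in MET_P versus MET_noP (2 without MET_P library 19, 8 without MET_noP library 17, 2 for genes with 5 or more positions), from 8 in MET_P versus CON_P (16 without CON_P library 30, 4 for those genes), from 9 in MET_noP versus CON_noP (4 without CON_noP library 16, 5 after centring, 4 for those genes) and from 6 for the interaction (10 without MET_noP library 17). Apart from centring, counts over all genes in these settings are not given here, so the moves are not a result about the family. Read depth is unknown, and small differences near 100% or at 2 to 4 positions are the least certain.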
